A study of Mus musculus with 22 samples.

Results

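The 10 genes described here were measured in colon tissue and are 10 of the 23997 genes in the deposited expression table. Of these, 9 are textbook genes of blood vessel endothelium (Pecam1, Cdh5, Esam, Kdr, Flt1, Tek, Emcn, Plvap and Vwf), and the other is Edn1, which encodes endothelin 1. The 10 were chosen by name, with earlier results of these data known. The 22 libraries came from colons of wild type BALB/c mice that began the study at 5 weeks of age and drank their assigned water for 3 weeks, to 8 weeks of age. The 8 CON libraries came from mice on distilled water. The 5 DSS libraries came from mice on distilled water with 5% dextran sulfate sodium (DSS) in the last 1 week. The 4 HMLS and 5 TM libraries came from mice on deep sea waters of those names, whose abbreviations the labels do not explain, with the same 5% DSS in the last 1 week. DSS is a sulfated polysaccharide that injures the colon lining when drunk and is used to model colitis. Colon was taken as whole tissue, so vessels were a small part of each sample, and no library was sorted for endothelium. The labels do not say whether each library is a separate mouse, and the p-values measure the spread between libraries.

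Blood endothelium is a single layer of cells that lines every vessel, seals its wall, controls the passage of fluid and leukocytes, and sprouts new vessels in response to VEGF. Pecam1, Cdh5 (VE-cadherin) and Esam hold endothelial cells together at their borders. Kdr is the main signalling receptor for VEGF, Flt1 binds VEGF with little signalling of its own, and Tek (Tie2) is the receptor for the angiopoietins, which steady or loosen vessels. Emcn (endomucin) coats capillaries and veins, Plvap forms the diaphragms of fenestrated capillaries such as those under the gut lining, and Vwf is stored by endothelium and by platelets for clotting. Edn1 encodes a peptide that constricts vessels after it is cut from its precursor by the enzymes Ece1 and Ece2 and binds the receptors Ednra and Ednrb. Endothelium is its best known source, and epithelial cells can make it too.

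Values are FPKM, a fragment count scaled to transcript length and sequencing depth, so levels of different genes can be compared. In CON, Edn1 had the highest mean of the 10 genes, 19.1 ± 3.08 FPKM (SD, n = 8). Plvap (14.9 ± 5.35) and Pecam1 (10.7 ± 2.69) came next, then Esam (5.58 ± 0.986), Kdr (4.99 ± 1.11), Cdh5 (4.01 ± 0.947), Emcn (3.14 ± 0.797), Vwf (3.05 ± 0.824), Flt1 (2.61 ± 0.706) and Tek (2.32 ± 0.494), all in FPKM as mean ± SD with n = 8. The ranges of every pair of neighbours in this order overlapped, and only Pecam1 lay above its neighbour, Esam, in all 8 libraries. All 9 endothelial genes were therefore detected in every library, the lowest single value being 0.574 FPKM for Emcn in 1 DSS library.

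The promoters of Edn1, Kdr and Tek are shown because Edn1 was the one gene of the 10 to rise in any group, while Kdr and Tek fell in DSS and in HMLS and had the highest Pearson r of any pair of the 10 over the 22 libraries. Each run is 300 bases of the RefSeq annotation of GRCm38.p6, from 250 bases before to 50 after the annotated start, read along the gene's own strand. The promoter table held 5 of the 10 genes. Edn1 lies at chr13:42301226-42301525 on the plus strand, Kdr at chr5:75978406-75978705 on the minus strand and Tek at chr4:94739039-94739338 on the plus strand. Capitals mark matches to motifs searched for on both strands. These were the AP-1 motif, TGANTCA, with a variant, TGACTAA, the motif of GATA factors, written TTATCT, the core of the hypoxia response element, written ACGTG, and a motif of ETS factors, written GGAAGT.
Edn1: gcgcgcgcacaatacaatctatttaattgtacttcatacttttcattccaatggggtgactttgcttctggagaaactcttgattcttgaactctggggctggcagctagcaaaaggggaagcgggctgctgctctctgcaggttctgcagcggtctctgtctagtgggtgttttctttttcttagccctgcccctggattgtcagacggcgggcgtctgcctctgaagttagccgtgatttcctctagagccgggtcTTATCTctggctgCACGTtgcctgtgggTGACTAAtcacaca
Kdr: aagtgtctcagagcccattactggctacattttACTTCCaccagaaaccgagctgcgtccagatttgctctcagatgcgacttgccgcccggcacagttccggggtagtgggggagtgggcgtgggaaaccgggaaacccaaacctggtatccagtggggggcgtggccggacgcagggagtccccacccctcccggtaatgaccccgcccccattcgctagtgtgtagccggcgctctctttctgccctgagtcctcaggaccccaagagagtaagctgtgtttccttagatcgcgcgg
Tek: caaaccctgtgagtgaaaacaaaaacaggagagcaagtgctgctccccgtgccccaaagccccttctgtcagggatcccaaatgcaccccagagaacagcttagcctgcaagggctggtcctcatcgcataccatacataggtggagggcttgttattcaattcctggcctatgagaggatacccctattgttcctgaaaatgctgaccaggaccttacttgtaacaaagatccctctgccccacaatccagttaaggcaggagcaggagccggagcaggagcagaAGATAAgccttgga
In the Edn1 run the capitals are, in order, the GATA letters at 9 to 14 bases after the start, the hypoxia core read on the other strand at 22 to 26, and the AP-1 variant at 37 to 43. Kdr held 1 ETS match on the other strand, and Tek 1 GATA match on the other strand. Such short motifs are common: of 32851 mouse promoters of this length, 23.8% held the ETS letters, 19.6% the hypoxia core, 11.2% the GATA letters, 7.81% the AP-1 letters and 2.35% the AP-1 variant. The matches describe letters only.

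Libraries of one group differed widely, and one control stood apart. Library 8 of CON was the lowest of the 8 controls in 9 of 9 endothelial genes. Its 9 values summed to 25.1 FPKM, against a CON median of 54.8 FPKM and a CON highest of 63.6 FPKM. Its Edn1 level, 22.7 FPKM, was near the top of the CON range of 14.6 to 22.9 FPKM. Its sums over leukocyte markers (58.3 FPKM) and fibroblast markers (236 FPKM) were also the lowest of CON, and its epithelial sum (4372 FPKM) the highest. Library 6 of DSS and library 8 of HMLS were each the lowest of their group in 6 of 9 endothelial genes. Sequencing gave 48089882 to 68733410 reads per library. The mapped share was lower in DSS (86.6% ± 2.81, SD, n = 5) than in CON (91.0% ± 0.711, SD, n = 8), with no overlap. Gene counts were not used here, so the depth behind a single gene's value is unknown.

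**Figure D1:**
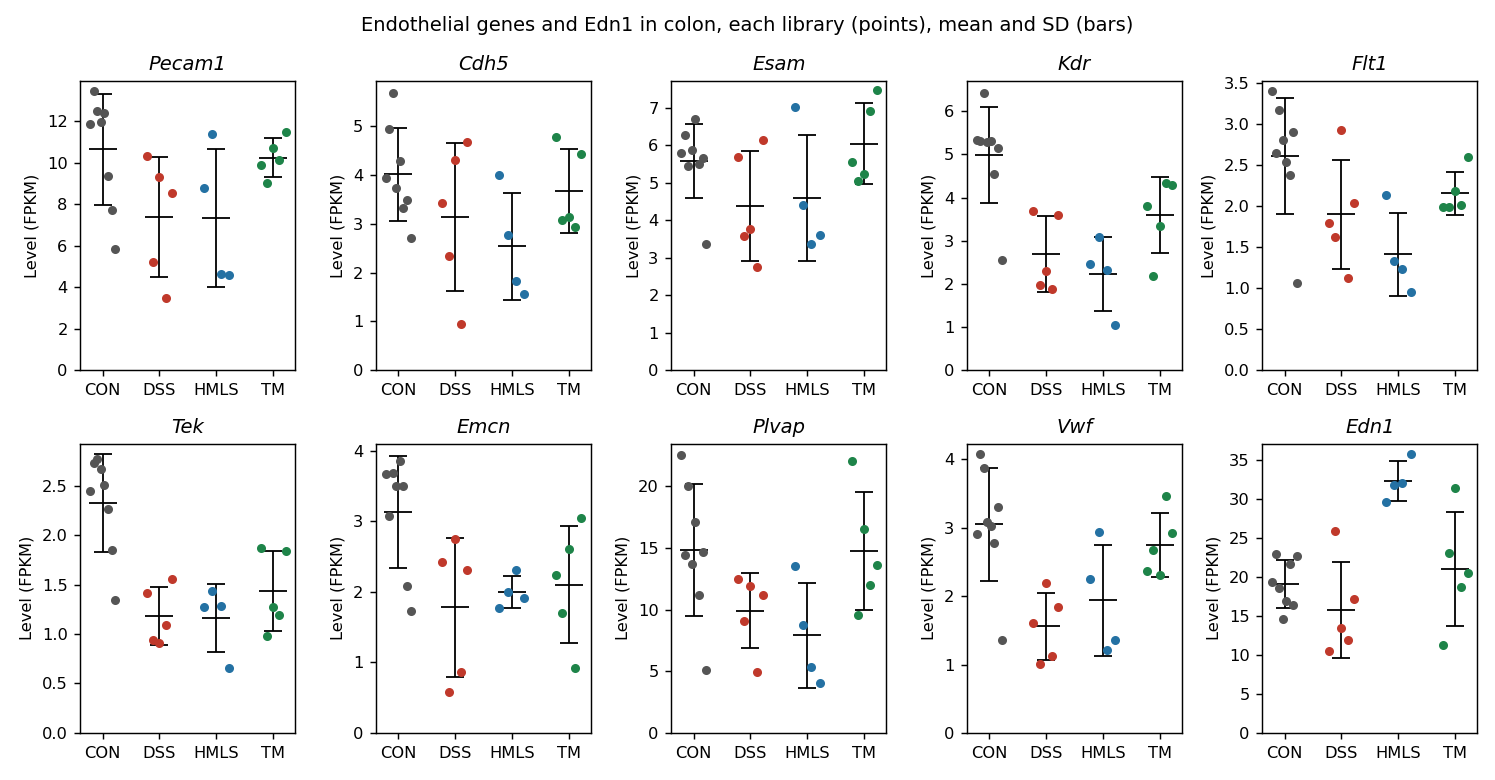
Level in FPKM (vertical axes, linear, from 0) of the 9 endothelial genes and Edn1 in each of the 22 libraries (points) by group, with the group mean and SD (bars). The lowest CON point in every endothelial panel is the same library, number 8, and the 4 HMLS points for Edn1 (29.7 to 35.8 FPKM) lie above all CON points.

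In colitis on distilled water, 4 of the 9 endothelial genes were lower than in healthy colon: the growth factor receptors Kdr and Tek, and Vwf and Emcn. Each was at 50.9% to 56.8% of its CON mean. No endothelial gene was higher, and Edn1 was not called. In whole tissue, fewer endothelial cells and less RNA per cell cannot be told apart. Of the markers of other cells, 5 of 6 fibroblast and 2 of 6 leukocyte genes were lower too, with summed medians of 161 against 322 FPKM and 60.9 against 106.9 FPKM, and their part was not tested. All 9 differences were negative, from -0.71 to -0.31 on the log2(FPKM + 1) scale, with a median of -0.52, against a median of -0.01 over all genes tested. Of all 13483 genes tested, 27.1% were called, 13.1% as lower and 14% as higher, by limma at a Benjamini-Hochberg adjusted p under 0.05. Fold changes on this scale understate the change of genes with low values, such as these.

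Kdr ranged over 2.54, 5.30 and 6.43 FPKM in CON (lowest, median, highest). In DSS it was 3.68, 1.97, 2.30, 1.89 and 3.59 FPKM in libraries 1, 2, 5, 6 and 7. Every DSS library lay below the other 7 controls, and only library 8 of CON fell among the DSS values. The difference was -0.71 (SE 0.175, adjusted p = 0.00999 by limma), 1.63-fold lower.

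Tek, the angiopoietin receptor, ranged over 1.35, 2.48 and 2.77 FPKM in CON and was 1.42, 0.935, 0.907, 1.09 and 1.56 FPKM in the same 5 DSS libraries. The groups overlapped only through library 8 of CON. Its difference was -0.60 (SE 0.135, adjusted p = 0.00623 by limma). Tek was the lowest expressed of the 10 genes, with 2 of 5 DSS libraries below 1 FPKM.

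Vwf showed the same layout. It ranged over 1.36, 3.06 and 4.08 FPKM in CON and was 1.61, 1.01, 2.2, 1.13 and 1.84 FPKM in DSS, a difference of -0.65 (SE 0.175, adjusted p = 0.0138 by limma). Emcn ranged over 1.73, 3.50 and 3.86 FPKM in CON and was 2.42, 0.574, 2.75, 0.860 and 2.31 FPKM in DSS, so 2 DSS libraries were far below the other 3. Its difference of -0.63 (SE 0.221, adjusted p = 0.0459 by limma) did not pass in 8 of 13 fits that left out 1 library each, namely any one of CON 1 to 6, DSS 2 or DSS 6, with an adjusted p of up to 0.121.

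The junction genes and the remaining endothelial genes did not pass the test in DSS. Pecam1 averaged 7.39 ± 2.89 FPKM (SD, n = 5) against 10.7 ± 2.69 FPKM in the controls, a log2 difference of -0.52 (adjusted p = 0.104 by limma). Cdh5 differed by -0.35 (adjusted p = 0.254), Esam by -0.31 (adjusted p = 0.170), Flt1 by -0.31 (adjusted p = 0.202) and Plvap by -0.50 (adjusted p = 0.190), all by limma. Cdh5 in DSS spanned 0.945 to 4.67 FPKM, with 3 of 5 libraries inside the CON range of 2.71 to 5.69 FPKM and 2 below it. The 95% interval of Pecam1 was -1.0 to -0.03 and that of Plvap -1.10 to 0.09.

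One control decided how many endothelial genes passed. Without library 8 of CON, 7 of 9 were called lower in DSS. Pecam1 (-0.62, adjusted p = 0.0426), Flt1 (-0.43, adjusted p = 0.0381) and Plvap (-0.69, adjusted p = 0.0246) joined the 4, by limma. Of all 13448 genes tested, 3762 were called then, against 3655 of 13483 with all libraries. Library 8 was singled out after its values were seen, as the lowest control in 9 of 9 genes. Leaving it out had to widen all 9 differences and could only reduce overlap, so it gives no separate support. In that set, all DSS libraries lay below all CON libraries for Kdr, Tek and Vwf, as they did for 4.95% of 13788 expressed genes. With the mapped share of each library as a covariate, 0 of 10 genes passed in DSS, with Kdr at -0.92 (adjusted p = 0.170) and Tek at -0.78 (adjusted p = 0.143), and only 26 of all genes did. Under the covariate some differences grew, as these 2 did, and others shrank, as those of Vegfa, Cd34, Aplnr and Ece2 did. Since the mapped share did not overlap between DSS and CON, the 2 cannot be told apart.

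Edn1 was not called in DSS. It was 10.5, 25.9, 13.5, 12.0 and 17.2 FPKM in the 5 DSS libraries, against 14.6 to 22.9 FPKM in CON. Thus 3 DSS libraries lay below every control and 1, library 2, above every control. The difference was -0.31 (SE 0.177, adjusted p = 0.194 by limma), the same size as those of Esam and Flt1. Without DSS library 2 it was -0.50 and passed (adjusted p = 0.0227).

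With HMLS water and DSS, Edn1 was higher than in healthy colon while 5 of the 9 endothelial genes were lower. HMLS and TM differed from CON in both water and DSS, and no group drank deep sea water without DSS. In these comparisons with CON the water and the DSS therefore cannot be told apart. Edn1 was 29.7, 31.8, 32.1 and 35.8 FPKM in HMLS libraries 3, 6, 7 and 8, a mean of 32.3 ± 2.54 FPKM (SD, n = 4). Every HMLS library lay above every control, as was so for 7.7% of 13788 expressed genes. The difference was 0.74 (SE 0.121, 95% interval 0.48 to 1.0, adjusted p = 0.000741 by limma), 1.67-fold higher. Of 13400 genes tested, 34.1% were called, 17.5% as higher and 16.6% as lower. Edn1 passed in each of the 12 fits without 1 library (0.69 to 0.78) and under each other setting tried, with an adjusted p of at most 0.0358.

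The endothelial genes lower in HMLS were Kdr, Tek, Flt1, Cdh5 and Emcn. Kdr was 2.45, 3.09, 2.33 and 1.05 FPKM in HMLS, 44.7% of the CON mean, with a difference of -0.91 (SE 0.196, adjusted p = 0.00344 by limma). Tek was 1.27, 1.43, 1.28 and 0.654 FPKM, a difference of -0.62 (adjusted p = 0.00690 by limma). For both, the HMLS values overlapped CON only through library 8 of CON.

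Flt1 was 2.13, 1.33, 1.23 and 0.951 FPKM in HMLS, a difference of -0.57 (adjusted p = 0.0269 by limma), and lay below all CON libraries but number 8. Cdh5 was 3.99, 2.76, 1.83 and 1.57 FPKM, a difference of -0.53 (adjusted p = 0.0378 by limma), and its 2 higher libraries lay within the CON range. Emcn was 1.77, 1.99, 2.32 and 1.91 FPKM, a difference of -0.44 (adjusted p = 0.0466 by limma), the narrowest spread of any endothelial gene in HMLS. Pecam1 (-0.53, adjusted p = 0.0989), Plvap (-0.86, adjusted p = 0.0658), Vwf (-0.47, adjusted p = 0.0772) and Esam (-0.26, adjusted p = 0.255) did not pass.

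These smaller calls lay near the threshold and depended on the libraries and settings used. Without HMLS library 8, 3 of the 10 genes were called (Kdr, Tek and Edn1), and without CON library 8, 9 were. Calls over all genes moved the same way, from 4565 of 13400 with all libraries. They were 3106 of 13362 without HMLS library 8 and 4808 of 13363 without CON library 8. Cdh5 did not pass in 7 of 12 fits without 1 library (HMLS 7 or 8, CON 1 to 5), Emcn in 9 of 12 (HMLS 3, 6 or 8, CON 1 to 6) and Flt1 in 3 of 12 (HMLS 6, 7 or 8). Kdr and Tek passed in all 12. By limma, Cdh5 and Emcn also did not pass without the filter on low values (adjusted p = 0.0585 and 0.0670). The same held with all 4 groups in the fit (0.0866 and 0.144) and with the mapped share as a covariate (0.0772 and 0.142). With that covariate Plvap (-1.28, adjusted p = 0.0399) and Vwf (-0.78, adjusted p = 0.0286) passed, by limma. Without CON library 8, all HMLS libraries lay below all CON libraries for Kdr, Flt1 and Tek, as for 9.05% of 13788 expressed genes, and Edn1 remained above, as for 10.2%. Library 8 was the lowest control for Kdr, Flt1 and Tek, so leaving it out could only reduce their overlap.

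With TM water and DSS, 1 of the 10 genes differed from healthy colon. Tek was 1.87, 0.976, 1.28, 1.20 and 1.84 FPKM in TM libraries 3, 5, 6, 7 and 8, a difference of -0.45 (SE 0.137, adjusted p = 0.0251 by limma). Its highest TM libraries lay within the CON range. Of 13485 genes tested, 26% were called, 11.8% as lower and 14.3% as higher. The call was lost without TM library 5, 6 or 7, with an adjusted p of up to 0.0748 by limma. Without CON library 8, 4 of the 10 genes were called, and 3750 of all 13440 genes tested. In that set all TM libraries lay below all CON libraries for Kdr, as for 4.3% of 13788 expressed genes. Library 8 was the lowest control for Kdr, so leaving it out could only reduce the overlap.

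The other TM values sat close to CON for the junction genes and Plvap. Pecam1 was 10.3 ± 0.923 FPKM in TM (SD, n = 5), a log2 difference of -0.01 with a 95% interval of -0.35 to 0.33, and Plvap 14.8 ± 4.80 FPKM, a difference of 0.03 (-0.56 to 0.62). Both differences change sign when single libraries are left out. Vwf was 2.75 ± 0.468 FPKM, a difference of -0.09 (-0.42 to 0.24), and Cdh5 3.68 ± 0.864 FPKM, a difference of -0.10 (-0.41 to 0.21). Kdr (-0.38, adjusted p = 0.101 by limma) and Emcn (-0.43, adjusted p = 0.0960 by limma) had intervals below 0 but did not pass. Edn1 spanned 11.3 to 31.4 FPKM in TM, wider than all 8 controls, with a mean of 21.0 ± 7.30 FPKM (SD, n = 5) and a difference of 0.07 (adjusted p = 0.790 by limma).

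**Figure D2:**
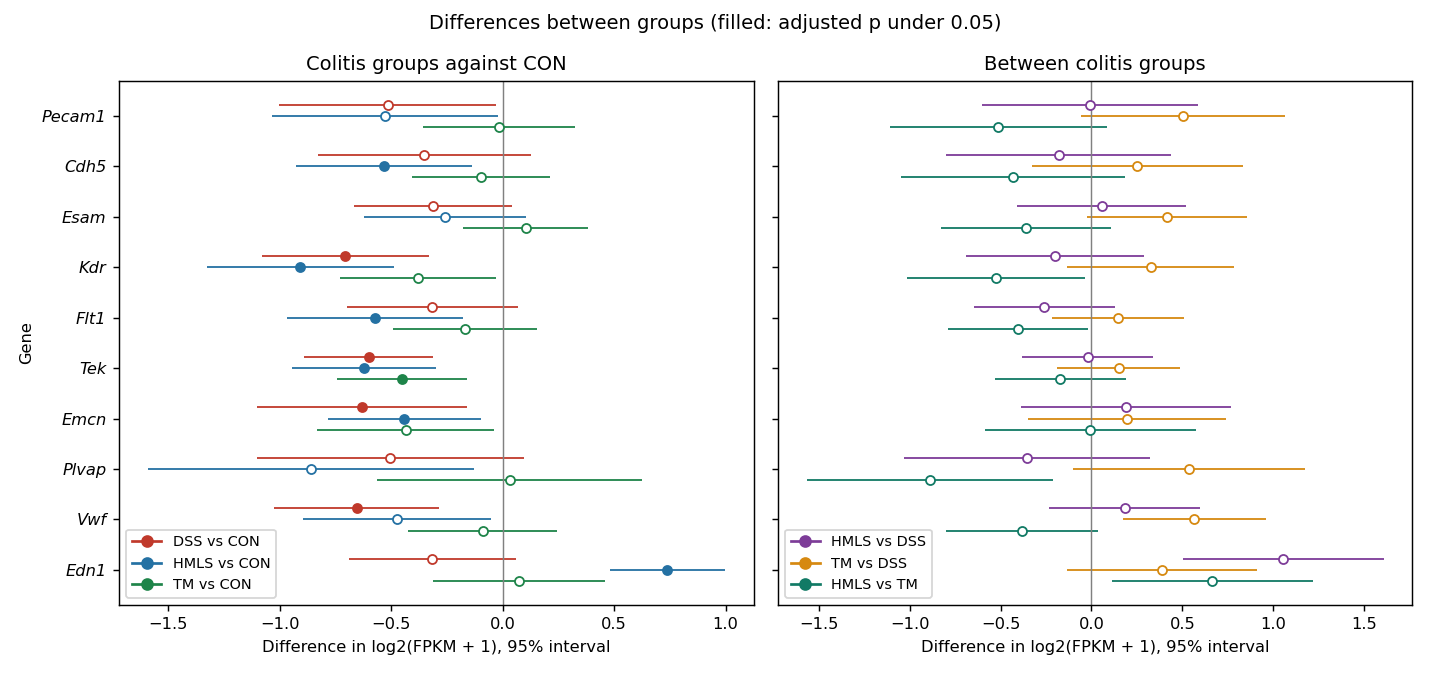
Difference between groups in log2(FPKM + 1) (horizontal axes) for each gene (vertical axis), with 95% intervals from limma; filled points have an adjusted p under 0.05. Edn1 in HMLS against CON is the only filled point to the right of 0, at 0.74, and no point is filled between the 3 colitis groups.

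Between the colitis groups no gene passed. The 3 comparisons shared one fit over the 14 colitis libraries and 13341 genes, of which 0 (0%) were called in each; at an unadjusted p under 0.05, limma gave 740 genes (5.55%) for HMLS against DSS, 367 (2.75%) for TM against DSS and 1260 (9.44%) for HMLS against TM. These comparisons share libraries with each other, and the values below are descriptions with their errors.

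Edn1 was 2.08-fold higher in HMLS than in DSS, a difference of 1.05 (SE 0.259, 95% interval 0.50 to 1.61, adjusted p = 0.849 by limma, unadjusted p = 0.00104). All 4 HMLS libraries lay above all 5 DSS libraries, as was so for 0.551% of 13788 expressed genes. The highest DSS library, at 25.9 FPKM, was below the lowest HMLS library, at 29.7 FPKM. Against TM, HMLS was 0.66 higher (SE 0.259, 95% interval 0.11 to 1.22, adjusted p = 0.473 by limma), with TM library 6, at 31.4 FPKM, inside the HMLS range. TM against DSS gave 0.39 (95% interval -0.13 to 0.91).

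The endothelial genes were arranged differently. In TM against DSS all 9 differences were positive, from 0.15 to 0.57, with a median of 0.33 against 0.00 over all genes tested. Vwf had the smallest p (0.57, SE 0.184, adjusted p = 1.0 by limma, unadjusted p = 0.00787), and its TM values (2.37, 2.68, 2.31, 3.46 and 2.92 FPKM) all lay above its 5 DSS values, as was so for 0.348% of 13788 expressed genes. In HMLS against TM all 9 differences were negative, from -0.89 to -0.01, with a median of -0.40 against -0.01 over all genes. Plvap was lowest there (-0.89, SE 0.317, adjusted p = 0.456 by limma). In HMLS against DSS the 9 differences lay between -0.36 and 0.19, 6 negative and 3 positive, with a median of -0.02. The 9 genes vary together between libraries, so 9 equal signs are not 9 separate observations.

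Edn1 and the mean of the vessel genes were also compared library by library. The mean of log2(FPKM + 1) over the 9 endothelial genes had a median of 2.62 over CON libraries, 2.22 over DSS, 1.95 over HMLS and 2.32 over TM. HMLS library 8 had the lowest of these means in HMLS, 1.54, and the highest Edn1 level of all 22 libraries, 35.8 FPKM. DSS library 6 had the lowest mean of all, 1.48, with an Edn1 level of 12.0 FPKM, so a low vessel mean did not always go with high Edn1.

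**Figure D3:**
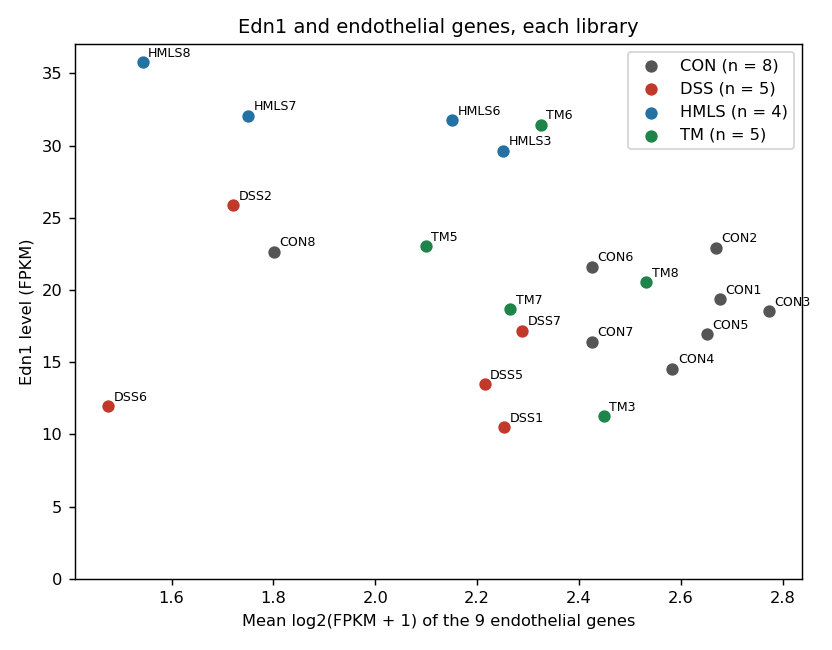
Edn1 level in FPKM (vertical axis, from 0) against the mean log2(FPKM + 1) of the 9 endothelial genes (horizontal axis) in each of the 22 libraries, coloured by group. The 4 HMLS libraries are high in Edn1 (29.7 to 35.8 FPKM) across means from 1.54 to 2.25, and CON library 8 lies left of the other controls at 1.80.

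Within groups, the 9 endothelial genes rose and fell together from library to library and Edn1 did not join them. After group means were removed, the 36 pairs of endothelial genes had a Pearson r of 0.37 to 0.85 over 22 libraries, with a median of 0.66. Of these, 33 pairs passed a two-sided permutation test (100000 permutations of libraries within groups, Benjamini-Hochberg adjusted over 45 pairs), and 31 passed by Spearman's rho (0.27 to 0.82). Kdr and Tek had the highest Pearson r, 0.85 (adjusted permutation p = 0.000787, a value that 3 other pairs shared). By Spearman's rho Cdh5 with Plvap and Pecam1 with Cdh5 stood higher (both 0.82, against 0.76 for Kdr and Tek), and without the 2 farthest libraries Cdh5 with Plvap did (r = 0.79 against 0.71). Without the 2 libraries farthest from the median, most often CON 8, DSS 6 and HMLS 8, r was 0.15 to 0.79. Within the 8 CON libraries r was 0.60 to 0.98, and within the 14 colitis libraries, group means removed, 0.24 to 0.86.

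Edn1 had an r of -0.38 to -0.14 with the 9 endothelial genes, and 0 of 9 pairs passed (lowest adjusted permutation p = 0.117, and 0.0937 for Spearman's rho of -0.40 to -0.14). Without the 2 farthest libraries r was -0.46 to 0.03. It was negative with all 9 both within CON (-0.48 to -0.11) and within the colitis libraries (-0.43 to -0.01).

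**Figure D4:**
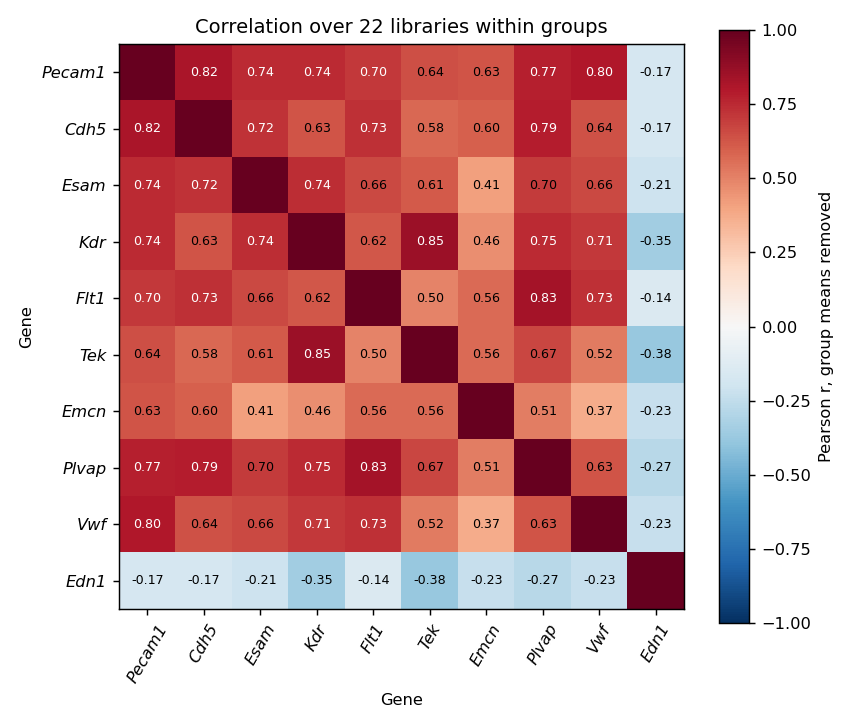
Pearson r between each pair of the 10 genes over 22 libraries after group means were removed (colour and printed value; both axes list the genes). The 36 endothelial pairs are 0.37 to 0.85, and the Edn1 row and column hold values from -0.38 to -0.14.

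Among 12210 genes with a mean of at least 1 FPKM, those most like the mean of the 9 endothelial genes over the 22 libraries, group means removed, were Gpr116 (r = 0.89), Adam19 (0.89), Ptprb (0.87), C1qa (0.87) and Ccl11 (0.85). Gpr116 and Ptprb are endothelial receptors, C1qa is a complement gene of macrophages and Ccl11 encodes an eosinophil chemokine. Without the 2 farthest libraries these r were 0.72 to 0.85. Those most like Edn1 were Zkscan8 (0.77), Bcl9 (0.73), Zfp551 (0.72), Dpyd (0.71) and Gab1 (0.69), of which Bcl9 and Gab1 dropped to 0.34 and 0.39 without the 2 farthest libraries. These are the highest of many values over libraries that share their preparation, and are given as descriptions.

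No other gene of the endothelin pathway was called higher beside Edn1. Of its 7 genes, all tested, Edn1 was called higher in HMLS against CON and none of the other 6 was. Of all genes tested 17.5% were called higher there, so 1 of 7 is near the background. Ece2, a converting enzyme, was lower in all 3 colitis groups: the CON mean was 8.68 ± 1.02 FPKM (SD, n = 8), against 6.16 ± 2.16 for DSS (n = 5), 3.51 ± 1.09 for HMLS (n = 4) and 6.01 ± 1.32 for TM (n = 5). Its differences from CON were -0.48 (adjusted p = 0.0339), -1.12 (adjusted p = 0.000136) and -0.48 (adjusted p = 0.00687) by limma. The DSS call was lost without CON 1, CON 4, DSS 5 or DSS 7 (adjusted p up to 0.101) and without the filter on low values (adjusted p = 0.0522). With the mapped share as a covariate it shrank to -0.20 (adjusted p = 0.712).

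Ece1, the other converting enzyme, differed from CON by 0.15 to 0.17 in the 3 groups and was not called. Ednrb, the receptor that also clears endothelin, was lower in HMLS (-0.61, adjusted p = 0.0215 by limma), and was -0.33 in DSS and -0.10 in TM, not called. The Ednrb call in HMLS was lost without HMLS 6 or 8 (adjusted p up to 0.0770). It was also lost with all 4 groups in the fit (0.0759), the replicate block (0.156) and the mapped share as a covariate (0.0845), by limma. Ednra, the constricting receptor of smooth muscle, was -0.51 in HMLS (adjusted p = 0.0519 by limma), -0.19 in DSS and 0.12 in TM. The other ligands, Edn2 (-0.44, -0.10 and -0.61 in DSS, HMLS and TM) and Edn3 (-0.01, 0.02 and 0.21), were not called.

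Among VEGF ligands and receptors, Vegfa was called higher in DSS and, close to the threshold, in HMLS. Kdr was lower in the same 2 groups, and the co-receptors Nrp1 and Nrp2 were lower in all 3. Of 10 listed genes, which include Kdr and Flt1, 8 were tested, and 1 was higher and 3 lower in DSS, 1 higher and 5 lower in HMLS, and 0 higher and 3 lower in TM. Over all genes tested the shares were 14% higher and 13.1% lower in DSS, 17.5% and 16.6% in HMLS, and 14.3% and 11.8% in TM, so 1 of 8 higher is near the background. Vegfa, the main VEGF ligand, averaged 19.2 ± 1.94 FPKM over the 8 controls and 33.5 ± 10.1 FPKM (SD) over the 5 DSS libraries, with all 5 DSS libraries (23.0 to 49.0 FPKM) above all controls (17.1 to 21.5 FPKM), as was so for 4.07% of 13788 expressed genes. Its differences from CON were 0.73 (adjusted p = 0.00298) in DSS, 0.27 (adjusted p = 0.0480) in HMLS and 0.41 (adjusted p = 0.111) in TM, by limma. With the mapped share as a covariate the DSS difference shrank to 0.27 and did not pass (adjusted p = 0.493). The HMLS call was lost in 8 of 12 fits without 1 library (adjusted p up to 0.121). It was also lost without the filter on low values, with median-of-ratios scaling and without trend and robust variance. All 4 groups in the fit, the replicate block and the mapped share as a covariate ended it too (adjusted p up to 0.339 by limma).

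Nrp2 and Nrp1, co-receptors that endothelium shares with nerves and other cells, were lower in all 3 groups. Nrp2 differed by -0.89 (adjusted p = 0.000414), -1.04 (adjusted p = 0.000983) and -0.90 (adjusted p = 0.000314) in DSS, HMLS and TM, and Nrp1 by -0.64 (adjusted p = 0.00731), -0.83 (adjusted p = 0.000899) and -0.41 (adjusted p = 0.0330), by limma. The Nrp1 call in TM was lost in 8 of 13 fits without 1 library (adjusted p up to 0.0990). Vegfc, a ligand of lymphatic vessels, was lower in HMLS (-0.44, adjusted p = 0.0162; lost without HMLS 8) and TM (-0.36, adjusted p = 0.0310; lost in 7 of 13 fits without 1 library), by limma, and was -0.36 in DSS (adjusted p = 0.0569). Flt4, its receptor, was not called in any (-0.05, -0.20 and 0.16). Of 6 angiopoietin and Tie genes, which include Tek, 5 were tested, and 2 were lower in each colitis group, Tek and its agonist Angpt1. Angpt1 passed the filter on low values through CON alone, where its median was 1.06 FPKM. Its highest values were 0.654 FPKM in DSS, 0.471 in HMLS and 0.640 in TM. The filter thus favoured its being lower, and its place in the count gives no separate support. Of all genes tested 13.1%, 16.6% and 11.8% were lower in DSS, HMLS and TM. Angpt1 differed by -0.55 (adjusted p = 0.0176), -0.64 (adjusted p = 0.00701) and -0.47 (adjusted p = 0.0204) by limma, at means of 0.412, 0.315 and 0.472 FPKM. Its TM call was lost without TM 5 or 7 and with the replicate block. With the mapped share as a covariate Angpt1 did not pass in DSS (adjusted p = 0.281) or HMLS (adjusted p = 0.0553), by limma. With the block it did not pass in HMLS (adjusted p = 0.136 by limma). Angpt2, Tie1 and Ptprb were not called in any.

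A wider list of 28 blood endothelial genes, 24 of them tested, followed the 9. In DSS 11 were lower and 0 higher, with a median difference of -0.42, and in HMLS 11 were lower and 0 higher, with a median of -0.38. In TM 5 were lower and 0 higher, with a median of -0.16. Of all genes tested 13.1%, 16.6% and 11.8% were called lower in DSS, HMLS and TM, and the medians over them were -0.01, 0.00 and 0.01. Only 22 of the list passed the filter on low values among the colitis libraries alone. Some of the 24 thus entered these fits only with the help of CON libraries, which favours their being lower. Icam2, counted as lower in HMLS, reached at most 0.540 FPKM there, against a CON median of 1.51 FPKM. Of the genes of lowest p in DSS, Aplnr, the apelin receptor, differed from CON by -1.10, -1.24 and -1.09 in DSS, HMLS and TM, and Cd34, a sialomucin of capillaries and of some fibroblasts, by -1.11, -1.22 and -0.75, all called (adjusted p at most 0.00555 by limma). With the mapped share as a covariate, Cd34 in DSS shrank to -0.45 (adjusted p = 0.442) and Aplnr to -0.74 (adjusted p = 0.247). Clec14a, an endothelial lectin, was lower in DSS (-0.76, adjusted p = 0.00330) and HMLS (-0.72, adjusted p = 0.00278) and was -0.40 in TM (adjusted p = 0.0546), and Calcrl, the receptor for adrenomedullin, was lower in all 3 (-1.11, -0.85 and -0.60; adjusted p at most 0.0126, by limma).

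Counts on this list depended on single libraries: without each library in turn they were 5 to 14 in DSS, 8 to 13 in HMLS and 4 to 7 in TM, with 14 in DSS without CON 8. With the mapped share as a covariate the DSS count was 0. Between the colitis groups 22 of the list were tested and 0 called. All 22 were higher in TM than in DSS (median 0.26) and all 22 lower in HMLS than in TM (median -0.29), the same layout as for the 9 and in the same libraries.

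**Figure D5:**
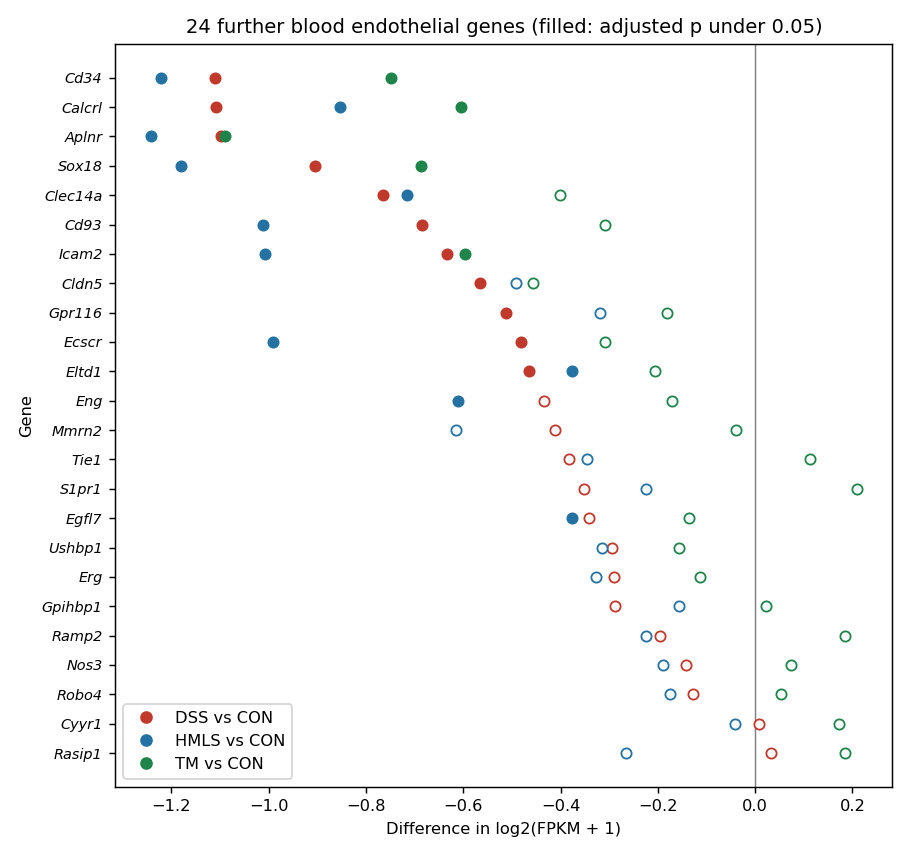
Difference from CON in log2(FPKM + 1) (horizontal axis) of the 24 further blood endothelial genes tested (vertical axis) in DSS, HMLS and TM; filled points have a limma adjusted p under 0.05. All filled points lie left of 0, 11 for DSS, 11 for HMLS and 5 for TM.

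Genes that report the state of endothelium did not move as one. Over all genes tested, 13.1%, 16.6% and 11.8% were called lower in DSS, HMLS and TM, and 14%, 17.5% and 14.3% higher. In lists as short as these, 1 call is close to what such shares give. Of 4 genes that respond to blood flow, Thbd, which restrains clotting on the vessel wall, was lower in all 3 groups (-1.14, -1.47 and -0.85; adjusted p 0.00448, 0.000731 and 0.0161, by limma), the TM call being lost without TM 5 (adjusted p = 0.0503). Klf4 was higher in all 3 (0.97, 0.80 and 0.60; adjusted p 0.00260, 0.00460 and 0.0247, by limma), the TM call being lost without TM 5, 6 or 8. With the replicate block Klf4 did not pass in HMLS (adjusted p = 0.0616) or TM (adjusted p = 0.145), by limma. With the mapped share as a covariate it did not pass in DSS (adjusted p = 0.243) or HMLS (adjusted p = 0.0752), by limma. Klf4 is also a gene of colon epithelium. Klf2 was higher in TM (0.64, adjusted p = 0.0165 by limma; lost without TM 5, adjusted p = 0.0528) and was 0.41 in DSS and -0.30 in HMLS, not called. Nos3, the endothelial nitric oxide synthase, was not called in any (-0.14, -0.19 and 0.07).

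Of 6 genes by which venules capture leukocytes, 4 were tested, with 0 called in DSS, 2 lower in HMLS and 1 higher in TM. Icam1 was lower in HMLS (-0.82, adjusted p = 0.00647 by limma) and was -0.43 in DSS and 0.25 in TM. Vcam1 was lower in HMLS (-0.72, adjusted p = 0.0327) and higher in TM (0.63, adjusted p = 0.0499), by limma; those calls were lost in 9 of 12 and 11 of 13 fits without 1 library (adjusted p up to 0.111 and 0.123). In HMLS against TM Vcam1 differed by -1.34 (SE 0.265, adjusted p = 0.278 by limma). Madcam1, the gut homing address of venules, and Ackr1 were not called in any comparison. Of 6 lymphatic genes, all tested, 1 was called lower in DSS, 1 higher and 2 lower in HMLS, and 1 higher in TM. Counts of 1 in 6 are near the shares over all genes given above. Pdpn was lower in DSS (-0.67, adjusted p = 0.0467 by limma), a call lost in 8 of 13 fits without 1 library. With the mapped share as a covariate Pdpn was -1.13 in DSS (adjusted p = 0.178 by limma). It was also lower in HMLS (-0.71, adjusted p = 0.0145 by limma), lost without HMLS 8. Ccl21a was lower in HMLS (-1.04, adjusted p = 0.0204 by limma), lost without HMLS 7 or 8. Prox1 was higher in HMLS (0.62, adjusted p = 0.00487 by limma). The Prox1 call was lost with all 4 groups in the fit (adjusted p = 0.0781) and with the replicate block (adjusted p = 0.0916), by limma. Reln was higher in TM (0.53, adjusted p = 0.0158 by limma), lost without TM 5 or 7.

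Markers of the other cells in the tissue were counted the same way, against 13.1%, 16.6% and 11.8% of all genes called lower and 14%, 17.5% and 14.3% called higher in DSS, HMLS and TM. Fibroblast markers were lower for 5 of 6 genes in DSS and in HMLS and for 2 of 6 in TM. Their summed level ran from 236 to 365 FPKM over CON libraries, 78.6 to 208 over DSS, 102 to 144 over HMLS and 111 to 474 over TM. Leukocyte markers were lower for 2 of 6 genes in DSS and 4 of 6 in HMLS, and higher for 1 of 6 in TM, with sums of 58.3 to 146.6 FPKM over CON libraries, 38.6 to 65.7 over DSS, 32.5 to 69.1 over HMLS and 79.9 to 145.9 over TM. Smooth muscle markers were lower for 3 of 6 genes in DSS, 0 in HMLS and 4 in TM, and pericyte markers for 1, 2 and 1 of 6, with 1 of 6 higher in TM; counts of 1 in 6 are near these shares. Epithelial markers were higher for 2 of 8 genes in each group, with sums of 2649 to 4372 FPKM over CON libraries, 3116 to 5702 over DSS, 3776 to 3966 over HMLS and 3392 to 5229 over TM. Adipocyte markers were lower for 4 of 5 tested genes in DSS, 0 in HMLS and 5 in TM. For Vwf, which platelets also hold, the summed level of 6 platelet genes was 4.71 to 9.92 FPKM over CON libraries and 15.0 to 39.0 FPKM over DSS libraries, where Vwf was lower; of the 2 tested, Gp1bb was called higher (1.80, adjusted p = 0.000318 by limma) and Pf4 was not (-0.38). Of the red cell genes, 2 were lower in HMLS and none was called in DSS or TM. No listed marker was at 0 in all libraries. The part of these differences in the endothelial results was not tested.

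By the GENCODE annotation of GRCm38, the 10 genes are protein coding and lie on 8 chromosomes: Edn1 at 13:42301476-42307990, Kdr at 5:75932827-75978458, Flt1 at 5:147561604-147726011, Tek at 4:94739289-94874976, Pecam1 at 11:106654217-106750628, Cdh5 at 8:104101625-104144511, Plvap at 8:71497765-71511752, Esam at 9:37528078-37538319, Emcn at 3:137341067-137432185 and Vwf at 6:125546774-125686679. Plvap overlaps Gtpbp3, Cdh5 overlaps Gm29682 and Edn1 overlaps Gm47118, each on the opposite strand. The libraries were made with a stranded kit, but the labels do not state whether counting used the strand, so for these 3 genes reads of the partner may be included.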

How the data were processed

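Whole colon RNA was sequenced in 22 libraries. Per the submitters' processing notes, bcl2fastq 2.20, Bowtie, TopHat2 2.0.13 and Cufflinks 2.2.0 were used with mm10. The FPKM values of 23997 genes were made by the authors, whose processing notes name Cufflinks. The unit is not named in the table and was read from that tool. Read totals and mapped percentages were taken as the authors deposited them (counts of reads, percent mapped). From these, log2(FPKM + 1) was tested with limma 3.58.1 in R 4.3.3 (trend and robust variance) over genes that reached 1 FPKM in 4 or more fitted libraries, adjusted over all genes tested and called at 0.05. Fits against CON held only the 2 groups compared, and the 3 colitis groups shared a fit. Scripts were tested on simulated data. Alternatives were another pseudocount (0.1), no filter, median-of-ratios scaling, limma without trend, all groups in 1 fit, the replicate block, the mapped share as a covariate and leaving out each library; leaving CON 8 out of the comparison of ranges was chosen after seeing the data. All 10 genes are named, and of each list up to 4 genes of smallest p in DSS against CON; other genes were named after their values were seen. The 10 genes and all lists were chosen with earlier results of these data known. Same-numbered TM and DSS libraries had an r of 0.137 to 0.432 in 3 pairs, but only 1 of the 3 TM libraries was most like the DSS library of its number. The numbers are thus not shown to mark pairs, and the replicate block changed no call there.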

Additional observations from a re-analysis of the deposited data

Results flagged for a closer look

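Of 40 tests of a library far from the rest of its group, 1 for each of the 10 genes in each of 4 groups, 2 stood out, and chance alone gives about 1 in 20. Both were library 8 of CON. Its Flt1 level was 1.07 FPKM, and the next CON library was at 2.38 FPKM. Its Esam level was 3.37 FPKM, and the next was at 5.44 FPKM.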

How the results depend on the processing

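Counts of the 10 genes called without each library in turn ran from 3 to 7 in DSS against CON (4 with all), 3 to 9 in HMLS against CON (6 with all) and 0 to 4 in TM against CON (1 with all); the 3 comparisons between colitis groups gave 0 throughout. With the mapped share as a covariate the DSS count was 0. With a replicate block the DSS count stayed 4, with Emcn lost (adjusted p = 0.0833 by limma) and Plvap gained (-0.66, adjusted p = 0.0175 by limma). Emcn in DSS was also lost without the filter on low values (adjusted p = 0.0690 by limma). With the block the HMLS count was 2 (Kdr and Edn1) and the TM count 0. Only 0 of 4 HMLS and 1 of 5 TM libraries were most like the CON library of their number (r -0.108 to 0.0707 and -0.00341 to 0.203). Outside the fits without 1 library, 391 of the differences kept their sign and their side of the threshold, 17 lost and 4 gained a call, and 8 changed sign. The last were Plvap in TM against CON under median-of-ratios scaling (-0.00148), Pecam1 in TM against CON (0.13), Pecam1 (0.11) and Esam (-0.0405) in HMLS against DSS with the block, Tek in HMLS against DSS with the mapped share (0.0284), and Emcn in HMLS against TM with a pseudocount of 0.1 (0.0259), the block (0.0174) and the mapped share (0.00774). Without 1 library each, the signs of these differences changed: in TM against CON Pecam1 (-0.118 to 0.0356), Plvap (-0.15 to 0.16) and Edn1 (-0.0831 to 0.268), in HMLS against DSS Pecam1 (-0.23 to 0.15), Esam (-0.13 to 0.17), Kdr (-0.329 to 0.00179) and Tek (-0.0832 to 0.102), and in HMLS against TM Emcn (-0.17 to 0.10). None of these was called, and the cause was not tested. Among the 24 further blood endothelial genes, the DSS count of 11 was 7 without the filter on low values and 7 with the block, and the HMLS and TM counts with the block were 5 and 3. Of other genes named above, the block also ended the HMLS calls of Vegfc, Clec14a, Calcrl, Icam1, Vcam1 and Pdpn. It ended the TM calls of Vegfc, Nrp1, Calcrl and Klf2 as well. The mapped share ended the HMLS calls of Vegfc, Vcam1, Pdpn and Ccl21a.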
